A study of Mus musculus with 4 samples.

Results

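Chemokines are small secreted proteins that steer leukocytes, and the 10 described here (Cxcl1, Cxcl9, Cxcl10, Cxcl12, Cxcl13, Cxcl16, Ccl2, Ccl6, Ccl9 and Ccl25) were followed at the mRNA level in whole mouse liver. They were chosen by name, and each was matched to its Ensembl gene identifier, giving 10 of the 46603 identifiers in the table. Total liver RNA was sequenced from 4 male C57BL/6 J mice with floxed HuR alleles (HuR flox/flox), HuR being the RNA-binding protein encoded by Elavl1. The HuR hKO group (mice 3 and 4, n = 2) received AAV8 that carried Cre recombinase under the hepatocyte-directed thyroxine-binding globulin promoter (TBGP), which leaves HuR in the other liver cells untouched by design, and the control group (mice 1 and 2, n = 2) received AAV8-TBGP-GFP, so that both groups carried the floxed alleles and a virus. Both groups ate a Western diet with a fructose-glucose drink (WDSW) for 4 weeks, a regimen that brings on fatty liver, and their age was not given in the labels. The comparison asked which chemokine mRNAs differed between livers with and without Cre.

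Chemokines bind G protein-coupled receptors on leukocytes and are held on the cell surface and matrix by glycosaminoglycans. In liver they are made by hepatocytes, Kupffer cells, endothelial cells and stellate cells, and inflammatory members are induced through NF-kappaB and interferon gamma while others, such as Cxcl12, are made at rest. Several chemokine mRNAs carry AU-rich elements in the 3′ untranslated region (3′ UTR), which HuR and other proteins bind, and such elements bear on mRNA stability. A separate set of atypical receptors takes up chemokines without the usual signal.

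The libraries held between 13032095 and 19715577 counts, and the largest was that of mouse 4. Elavl1, which Cre was meant to delete, did not have fewer reads in the 2 libraries labelled HuR hKO. Both were above both controls, as was so for 19.3% of all genes tested. Its counts were 377 and 347 in the controls and 541 and 648 in those labelled HuR hKO, giving a log2 fold change (log2FC, HuR hKO over control) of 0.41, a standard error (SE) of 0.135 and an adjusted p of 0.545 by edgeR's quasi-likelihood test with Benjamini-Hochberg adjustment. The counts cover the whole gene, so they cannot show the loss of a floxed part alone, and directions below follow the labels. The study itself reported reduced HuR mRNA and protein in HuR hKO livers, and loss of HuR from hepatocytes by immunofluorescence. Whether the mice sequenced were among those measured was not stated in the sources used here. The library of control mouse 1 held 54 counts of Ctrb1, a pancreatic enzyme gene, against 0 to 3 in the other mice. The other pancreas markers listed went the other way, with 0 counts in mouse 1. Of these, Pnlip had 9 counts in mouse 3 and Cela2a had 6 in mouse 4 (both named after their values were seen). Whether any library held other tissue was not tested, and values without mouse 1 stand beside the members that differed most. Whole-liver RNA cannot tell fewer cells of a type from less RNA per cell. Hepatocyte markers were present in every library, with Alb, the serum albumin gene, between 40930.7 and 45307.4 CPM (counts scaled to library size).

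The positions of the 10 chemokine genes are given here on GRCm38 from the GENCODE M21 annotation. Cxcl1 (chr5:90891241-90893115, plus strand), Cxcl9 (chr5:92321347-92328079, minus), Cxcl10 (chr5:92346638-92348889, minus) and Cxcl13 (chr5:95956951-95961068, plus) were on chromosome 5. Ccl2 (chr11:82035571-82037453, plus), Ccl9 (chr11:83572919-83578636, minus), Ccl6 (chr11:83587882-83593087, minus) and Cxcl16 (chr11:70453983-70459984, minus) were on chromosome 11, and Cxcl12 (chr6:117168535-117181367, plus) was on chromosome 6. Ccl25 (chr8:4325210-4360020, plus) overlapped the 5′ end of Elavl1 itself, on the opposite strand, over 204 exonic bases.

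The 3′ UTR of Cxcl1 was the richest of the 10 in the AU-rich pentamer ATTTA, with 7 in 592 bases, or 11.8 per kilobase. The others held between 0 (Ccl25, in 505 bases) and 5 (Ccl9, in 2465 bases), and the density of the other members with any was between 0.771 per kilobase in Cxcl12 and 4.24 per kilobase in Ccl6. Of 21037 mouse genes with an annotated 3′ UTR, 65.2% held at least 1 pentamer and 35.6% held 3 or more. The longer TTATTTATT was found 2 times in Cxcl1 and in no other member, against 7.65% of all genes with at least 1. The pentamers were searched on the transcribed strand of one transcript per gene. The densest stretches of Cxcl1 (chr5:90892609-90892633), Ccl6 (chr11:83588729-83588746) and Cxcl12 (chr6:117180406-117180427) are shown because AU-rich elements are the kind of sequence that HuR binds, with each pentamer in capitals:
Cxcl1: ctATTTATTTAtgtATTTATTTAtt
Ccl6: atATTTAaagcATTTAtc
Cxcl12: gaATTTAaataggacATTTAca

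**Figure D1:**
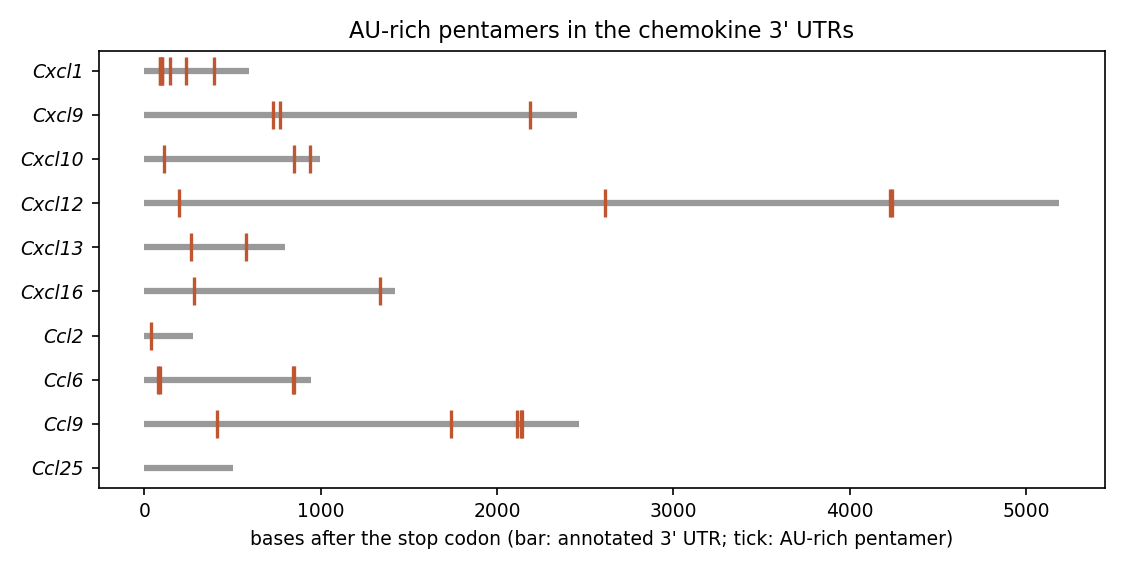
Positions of the AU-rich pentamer along the annotated 3′ UTR of each of the 10 chemokine genes, in bases after the stop codon; grey bars give the UTR length and each tick is 1 pentamer. Cxcl1 carried 7 in its first 592 bases, 4 of them within 25 bases, and Ccl25 carried 0 in 505 bases.

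The promoters of 3 of the CXC ligands held letters of the NF-kappaB site. The 250 bases before the start of 8 members were read from RefSeq promoters (GRCm38.p6), and Cxcl16 and Ccl2 had no entry. The NF-kappaB letters, GGG and TTCC with 2 or 3 bases of any kind between them, searched on both strands with overlapping matches merged, occurred at 2 places each in Cxcl1 (chr5:90890995-90891244), Cxcl9 (chr5:92328080-92328329) and Cxcl10 (chr5:92348890-92349139) and at 1 in Ccl9, against 8.26% of 32851 promoter windows of the same length with at least 1. The interferon-response letters, GAAA repeated after 2 bases of any kind, occurred in Cxcl10 alone among these members, against 2.98% of all windows. A match is a run of letters, not a measured binding site. The windows of these inflammatory ligands are printed in the direction of transcription, with the matches in capitals:
Cxcl1: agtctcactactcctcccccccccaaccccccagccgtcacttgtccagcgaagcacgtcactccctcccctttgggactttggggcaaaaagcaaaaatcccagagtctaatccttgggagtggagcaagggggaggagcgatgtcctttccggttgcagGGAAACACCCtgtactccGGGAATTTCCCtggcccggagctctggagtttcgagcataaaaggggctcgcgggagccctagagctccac
Cxcl9: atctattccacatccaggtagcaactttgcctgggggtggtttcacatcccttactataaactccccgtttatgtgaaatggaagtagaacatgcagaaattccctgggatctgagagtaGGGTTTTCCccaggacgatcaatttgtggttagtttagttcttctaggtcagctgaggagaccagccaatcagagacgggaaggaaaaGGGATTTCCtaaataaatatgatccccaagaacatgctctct
Cxcl10: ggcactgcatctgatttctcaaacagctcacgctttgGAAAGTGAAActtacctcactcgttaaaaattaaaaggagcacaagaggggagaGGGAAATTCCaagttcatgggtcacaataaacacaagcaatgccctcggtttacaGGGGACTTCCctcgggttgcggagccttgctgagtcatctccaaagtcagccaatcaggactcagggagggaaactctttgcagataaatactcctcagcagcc

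Cxcl12 dominated the mRNA of the 10 chemokines described here, and other ligands were not ranked with them. On a scale of reads per kilobase of merged exons, scaled to library size (RPKM), which lets genes of different length be compared, Cxcl12 stood at 32.6 ± 1.58 in controls and 31.3 ± 0.927 in the libraries labelled HuR hKO (SD, n = 2 each). It made up 64.8% and 66.8% of the summed RPKM of the 10 genes in control mice 1 and 2 and 61.7% and 62.2% in mice 3 and 4. Ccl9 was next with a mean of 5.56 RPKM over the 4 mice, followed by Ccl6 (2.95), Cxcl16 (2.67), Cxcl1 (2.33), Cxcl9 (2.11) and Cxcl10 (1.37). Ccl25 (0.425), Ccl2 (0.386) and Cxcl13 (0.282) were the lowest. Neighbours from Ccl6 down to Cxcl10 overlapped in their ranges over the 4 mice, as did Ccl25, Ccl2 and Cxcl13, whereas Cxcl12, Ccl9 and the step from Cxcl10 to Ccl25 were clear of the next gene. With the length of the longest transcript in place of merged exons the order was the same, with Ccl25 at 1.24 RPKM and Cxcl12 at 46.4 RPKM.

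**Figure D2:**
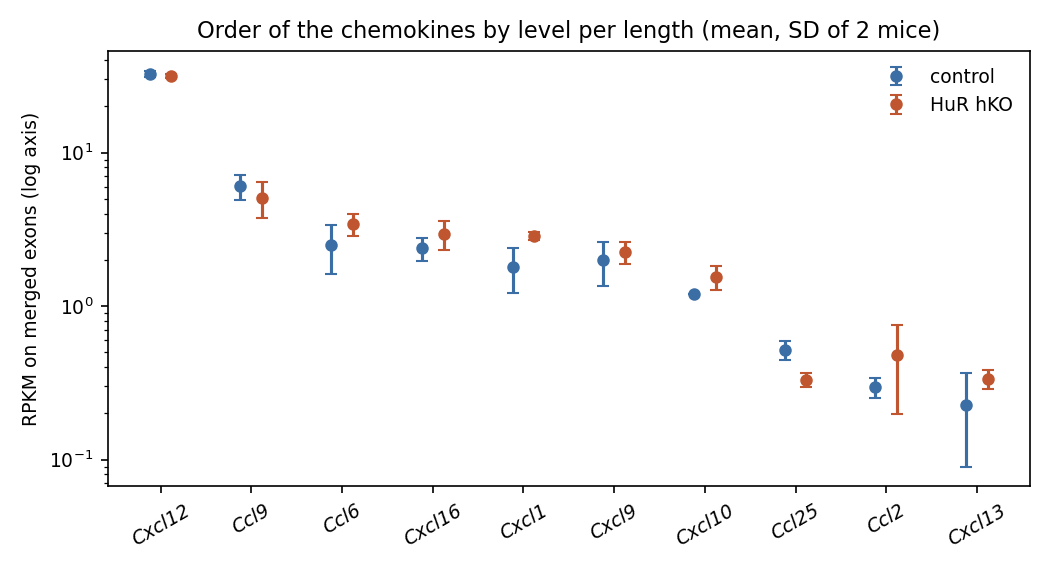
Level per length of each chemokine, in RPKM on a log axis, with points for the mean and bars for the SD of 2 mice per group, ordered by the mean over all 4 mice. Cxcl12 stood at 32.6 RPKM in controls, far above Ccl9 at 6.04 RPKM, and Ccl25, Ccl2 and Cxcl13 lay at the low end.

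None of the 8 chemokines that passed the filter on low counts was called at an adjusted p below 0.05 by edgeR's quasi-likelihood test, and DESeq2 and limma-voom called none either. Over all 13001 genes tested 3 were called, which is 0.0231%. By sign alone 5 of the 8 were higher and 3 lower under the HuR hKO label, with a median log2FC of 0.25 beside 0.002 over all genes tested. Of the 8, 1 (Cxcl1) had an unadjusted p below 0.05, against 7.43% of all genes. At the study's rule of a fold change of at least 1.8 with an unadjusted p below 0.05, 0 of the 8 were higher and 0 were lower, beside 1.21% and 0.915% of all genes. On counts with no scaling for library size, where the median over all genes was 0.31, 7 of the 8 were higher, with Cxcl12 (0.25) and Ccl9 (0.10) turned and Ccl25 alone lower. With 2 mice in a group an exact two-sided permutation test of a single gene cannot go below p = 0.333. The p-values of the fit rest on the spread between these mice, with each gene's variance moderated by that of all genes tested.

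Cxcl1, the neutrophil-attracting ligand of Cxcr2, had 4.13 and 2.61 CPM in the control mice and 5.57 and 5.14 CPM in the libraries labelled HuR hKO, from 55, 35, 80 and 97 counts. Mice 3 and 4 were each above mice 1 and 2, and control mouse 2 was the lowest. The log2FC was 0.67 (SE 0.289, 95% interval 0.002 to 1.33), with an unadjusted p of 0.0495 and an adjusted p of 0.67 by edgeR. It was 1.02 without control mouse 1 and 0.37 without control mouse 2.

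Cxcl9 and Cxcl10, the interferon-inducible ligands of Cxcr3 on T cells, both had intervals that held 0. Cxcl9 had 7.29 and 4.62 CPM in controls and 7.59 and 5.99 CPM in the libraries labelled HuR hKO, so the groups overlapped, and its log2FC was 0.18 (95% interval -0.44 to 0.81, adjusted p = 0.909 by edgeR). It was -0.11 without control mouse 2 and -0.0086 without mouse 3. Cxcl10 had 2.71 and 2.68 CPM in controls and 3.9 and 3.02 CPM in the libraries labelled HuR hKO, which did not overlap, with a log2FC of 0.35 (95% interval -0.33 to 1.04, adjusted p = 0.836 by edgeR), which was 0.15 without mouse 3 and 0.53 without mouse 4. Cxcl10 shares 133 exonic bases with Art3 on the opposite strand, and use of strand was not stated in the sources used here. Art3 stood at 1.5 ± 0.203 CPM in controls and 1.68 ± 0.104 CPM in the libraries labelled HuR hKO (SD, n = 2).

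Cxcl12, the ligand of Cxcr4 and Ackr3 that retains leukocytes and progenitors, was at 257.4 and 275.7 CPM in controls and 261.6 and 250.8 CPM in mice 3 and 4, which carry the HuR hKO label. The groups overlapped, and mouse 4 was the lowest. With 3425 to 4731 counts per library it was the best measured member, and its log2FC of -0.06 (SE 0.131) had a 95% interval of -0.36 to 0.24 (adjusted p = 0.95 by edgeR). Stellate and fibroblast markers, of cells that make Cxcl12, summed to 213.2 and 219.6 CPM in controls and 234.9 and 290.3 CPM in the libraries labelled HuR hKO, and their part in the level of Cxcl12 was not tested.

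Cxcl16, a membrane-anchored ligand of Cxcr6, had 6.31 and 8.05 CPM in controls and 10.3 and 7.58 CPM in the libraries labelled HuR hKO, and these overlapped. The log2FC was 0.31 (SE 0.233, adjusted p = 0.814 by edgeR), and it was 0.06 without mouse 3, 0.13 without control mouse 1, 0.50 without control mouse 2 and 0.52 without mouse 4. It shares 552 exonic bases with Zmynd15 on the opposite strand, which stood at 4.34 ± 0.236 CPM in controls and 4.54 ± 0.0219 CPM in the libraries labelled HuR hKO (SD, n = 2). Cxcl13, the B cell-attracting ligand of Cxcr5, had 2, 5, 5 and 8 counts in mice 1 to 4 and was below the filter, so no test was made. In mouse 1 these 2 counts are under the 3 counts that a count of 0 allows.

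Of the CC ligands, Ccl6 and Ccl9, which bind Ccr1 on myeloid cells, had log2FCs of opposite sign, neither past the threshold. Ccl6 had 5.56 and 3.36 CPM in controls and 6.83 and 5.41 CPM in the libraries labelled HuR hKO, for a log2FC of 0.45 (SE 0.294, adjusted p = 0.768 by edgeR) and 0.13 without control mouse 2 or 0.85 without control mouse 1. Ccl9 had 15.9 and 20.9 CPM in controls and 12.6 and 18.3 CPM in the libraries labelled HuR hKO, for a log2FC of -0.24 (SE 0.217, adjusted p = 0.844 by edgeR) that ran from -0.55 without mouse 4 to -0.022 without mouse 3. The groups overlapped for both. The pair are paralogs next to each other on chromosome 11, and reads that match both could have been divided between them in the authors' counting.

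Ccl25, which attracts Ccr9-bearing T cells, was the member with the largest negative log2FC. It had 3.46 and 4.25 CPM in controls and 2.3 and 2.65 CPM in the libraries labelled HuR hKO, from 46, 57, 33 and 50 counts, so that both of the latter were below both controls. The log2FC was -0.63 (SE 0.293, 95% interval -1.31 to 0.041), with an unadjusted p of 0.0622 and an adjusted p of 0.675 by edgeR, and between -0.79 and -0.48 with 1 mouse left out. The opposite-strand neighbour Elavl1 stood at 27.1 ± 1.74 CPM in controls and 36 ± 2.36 CPM in mice 3 and 4 (SD, n = 2). Of the 10 annotated Ccl25 transcripts, 7 start inside the overlap with Elavl1, and without strand the reads of the shared bases cannot be told apart. The intestine markers, of a tissue that also makes Ccl25, summed to 1.73 CPM in mouse 1 and to between 0.348 and 0.597 CPM in the other mice. Most of the sum in mouse 1 was Vil1, at 1.58 CPM. Muc2 went the other way, with 1 count in mouse 1 and 7 in mouse 2, and Lct and Cdx2 had 0 counts in every library (named after their values were seen). A part of intestine in the level of Ccl25 was not tested.

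Ccl2, the ligand of Ccr2 that draws monocytes, was near the floor in all 4 mice, with 4 and 5 counts in controls and 11 and 6 in the libraries labelled HuR hKO. Mouse 3 alone stood higher, at 0.766 CPM against 0.301 to 0.373 CPM elsewhere. It was below the filter, and a difference was not detectable at this depth. A test without the filter gave a log2FC of 0.63 with an adjusted p of 0.891 by edgeR. The same test gave Cxcl13 0.54 and an adjusted p of 0.929.

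**Figure D3:**
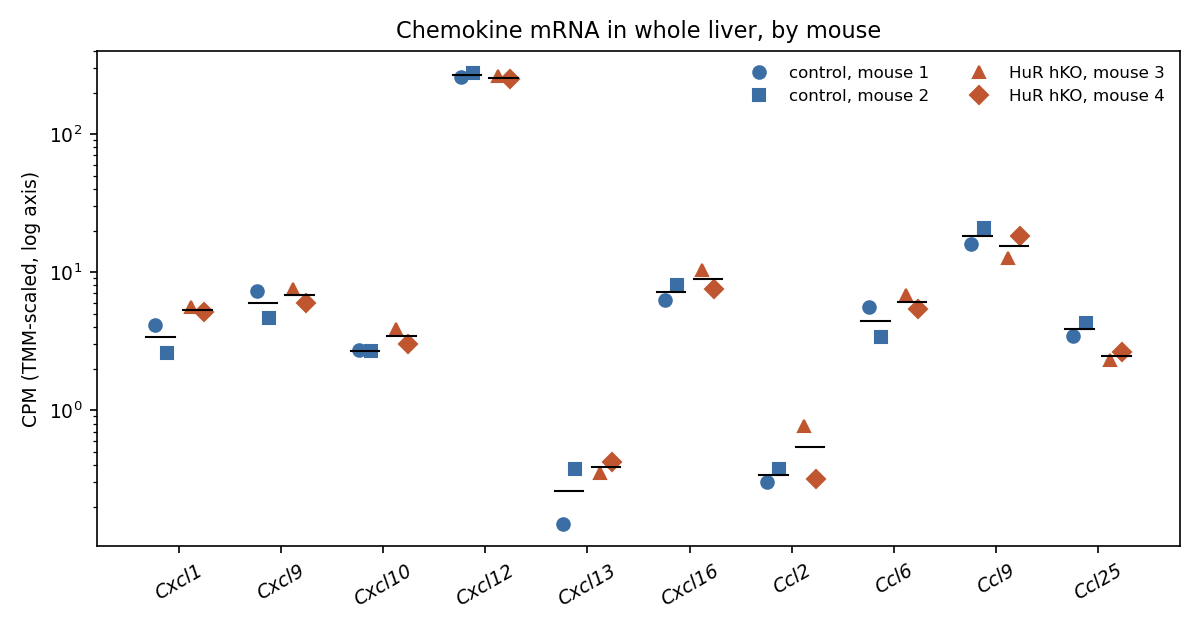
CPM of the 10 chemokines in each of the 4 livers on a log axis, with a symbol for each mouse and a line at the mean of each group. Cxcl1 and Cxcl10 were higher and Ccl25 was lower in both mice labelled HuR hKO than in both controls, and the other groups overlapped.

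The groups did not overlap for 3 of the 8 members tested: Cxcl1 and Cxcl10 were higher and Ccl25 was lower. Over all genes tested 19.3% did not overlap in the higher direction and 18.8% in the lower, so the members' counts of 2 and 1 were near those shares. Mouse 3 had the highest CPM of the 4 mice for 6 of the 10 chemokines (Cxcl1, Cxcl9, Cxcl10, Cxcl16, Ccl2 and Ccl6) and the lowest for Ccl9 and Ccl25. Control mouse 2 had the lowest CPM for Cxcl1, Cxcl9, Cxcl10 and Ccl6 and the highest for Cxcl12, Ccl9 and Ccl25. The members of 1 library share that library, so these are not independent observations.

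Of the 28 other chemokine ligands listed, 8 had enough counts to test and 5 were at 0 in every library. None had an unadjusted p below 0.05, and by sign 6 were higher and 2 lower (median log2FC 0.25). The median was 0.09 without control mouse 1, 0.15 without control mouse 2 and 0.037 without mouse 4, where 4 of the 8 were higher. Ccl27a, whose reads near-identical copies could share, was the most abundant and the one with the smallest p, at 7.37 and 9.54 CPM in controls and 10.8 and 9.76 CPM in the libraries labelled HuR hKO. Its log2FC of 0.28 (SE 0.199) had an adjusted p of 0.797 by edgeR.

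The receptors of these ligands were scarce in whole liver. Of the 18 signalling receptors, 5 were tested, and none had an unadjusted p below 0.05. By sign 2 were higher, but 0 without mouse 3 and 4 without mouse 4. Cxcr6, which binds Cxcl16, had 0.752 and 1.42 CPM in controls and 0.697 and 0.371 CPM in the libraries labelled HuR hKO. Its log2FC was -1.05 (SE 0.593, adjusted p = 0.733 by edgeR). The groups did not overlap for Cxcr6, as was so for 18.8% of all genes tested in the lower direction. Ccr2, the receptor of Ccl2, had 25 and 16 counts against 25 and 19 (log2FC -0.18). Cxcr2, Cxcr3, Cxcr4, Cxcr5, Ccr1 and Ccr9 were below the filter, and Ccr1, which binds Ccl6 and Ccl9, had between 0 and 4 counts.

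Of the 5 atypical receptors, all were tested and by sign 4 were higher, with a median log2FC of 0.34. That median rested on single mice: without mouse 4 it was -0.15 with 2 of the 5 higher, and it was 0.75 without control mouse 1, 0.59 without control mouse 2 and 0.80 without mouse 3. Ackr2, which scavenges inflammatory CC chemokines, had 0.676 and 0.82 CPM in controls and 1.74 and 1.64 CPM in the libraries labelled HuR hKO, a log2FC of 1.17 (SE 0.436, unadjusted p = 0.0277, adjusted p = 0.587 by edgeR). Ccrl2, which presents the chemoattractant chemerin, had 0.601 and 0.895 against 1.6 and 1.59 CPM, a log2FC of 1.08 (SE 0.455, unadjusted p = 0.0436, adjusted p = 0.649 by edgeR). Both were named because they passed a fold of 1.8 with an unadjusted p below 0.05 by edgeR, as did 1.21% of all genes in the higher direction. The groups did not overlap for either, on 8 to 31 counts per library, as was so for 19.3% of all genes in that direction. Ackr4, which takes up Ccl25, had a log2FC of 0.13 and Ackr3, the second receptor of Cxcl12, of 0.34, both with overlapping groups.

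**Figure D4:**
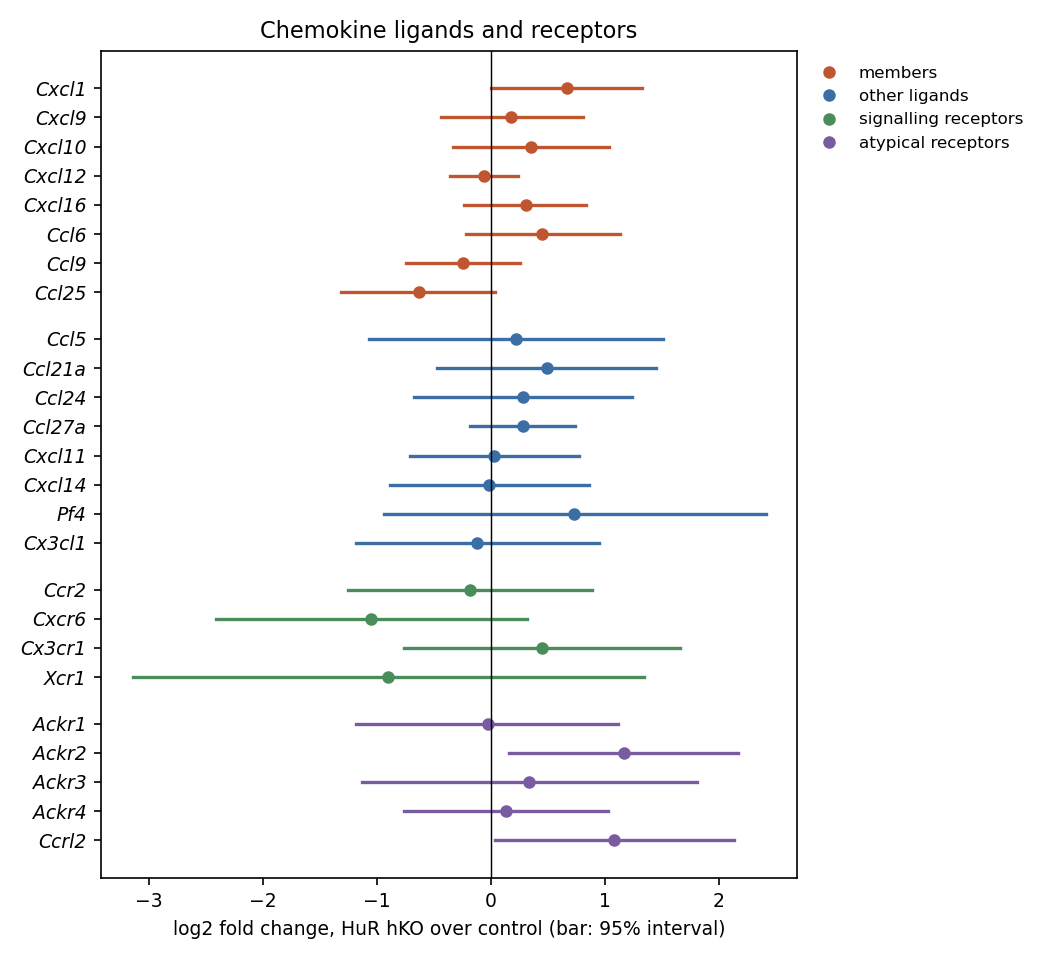
Log2FCs, libraries labelled HuR hKO over control, of the 8 chemokine members, 8 other ligands, 4 of the signalling receptors and 5 atypical receptors, with 95% intervals by edgeR. The intervals of Cxcl1, Ackr2 and Ccrl2 stayed above 0, and the interval of Cxcl12 (-0.36 to 0.24) was the narrowest.

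Of 11 proteases that trim or shed chemokines, 7 were tested, and 4 had a positive log2FC (median 0.05), against 7 (median 0.36) on counts unscaled for library size. Anpep, an aminopeptidase, was the most abundant (log2FC -0.026). Mmp12, the macrophage elastase that cleaves chemokines, had 3 and 3 counts in controls and 39 and 28 in the libraries labelled HuR hKO, a ratio of 8.98 per library size with an exact counting interval of 3.92 to 25.3. The fitted log2FC was 3.16 (SE 0.601, adjusted p = 0.161 by edgeR), and the adjusted p ran between 0.000219 and 0.447 over 11 alternatives, of which 2 (no scaling for library size, and no filter on low counts) called it.

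Cxcl9 and Cxcl10 are known targets of interferon gamma, and other targets and parts of that pathway were listed beside them. Of these 26 genes 25 were tested, and by sign 4 were higher and 21 lower (median log2FC -0.23), and 0 were called by edgeR. At an unadjusted p below 0.05, 4 of the 25 were lower and 0 higher, beside 3.39% and 4.04% of all genes. Where counts were left unscaled for library size, 18 of these 25 had a positive log2FC, and the median over all genes was itself 0.31. Iigp1, the most abundant, had a log2FC of -0.28.

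Of the 25 NF-kappaB pathway genes and targets 23 were tested, 12 higher and 11 lower, with a median of 0.023. Icam1, the leukocyte adhesion molecule, had the smallest p, at 6.69 and 7.9 CPM in controls and 12.8 and 10.5 CPM in the libraries labelled HuR hKO (log2FC 0.67, SE 0.197, adjusted p = 0.472 by edgeR), and Chuk, a kinase of the pathway and the most abundant, was at -0.07. Of 11 proteins that bind AU-rich mRNAs, all tested, 6 were higher and 5 lower. Elavl1 had the smallest p among them, and Zfp36, which promotes decay of such mRNAs, was the most abundant, at 75.6 and 65.5 CPM in controls and 83.4 and 87.2 CPM in the libraries labelled HuR hKO (log2FC 0.27, adjusted p = 0.684 by edgeR). Unscaled for library size, 21 of these 23 and all 11 had a positive log2FC.

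**Figure D5:**
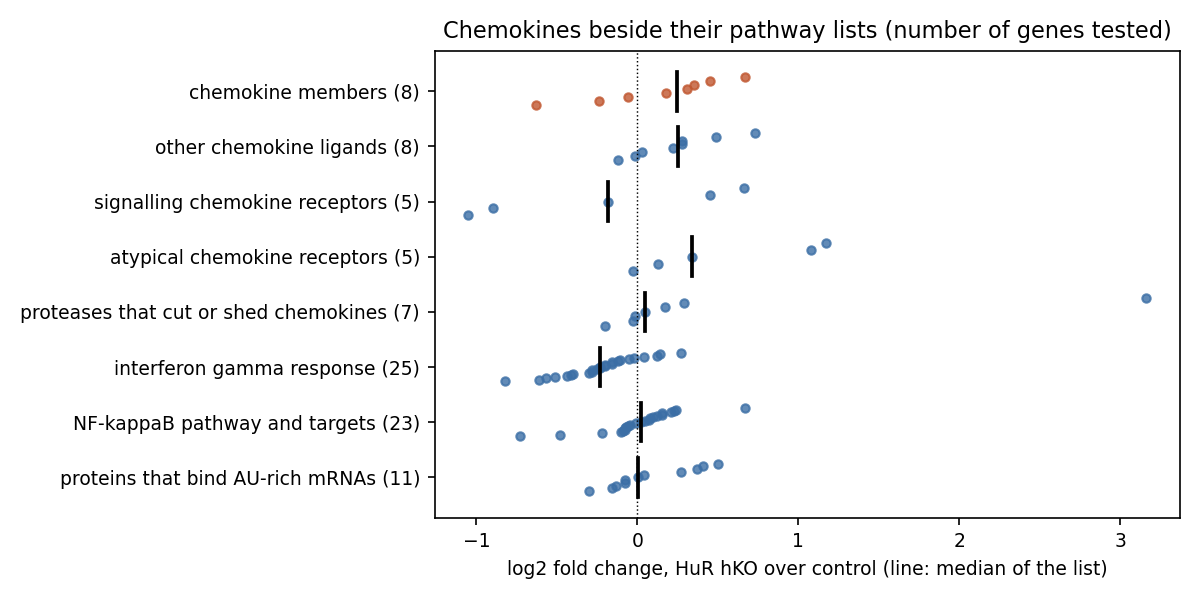
Log2FCs, libraries labelled HuR hKO over control, of every tested gene in the chemokine set and in 7 related lists, 1 point per gene, with a black line at each median and the number of genes tested in brackets. The medians were 0.25 for the chemokines, -0.23 for the interferon gamma list and 0.023 for the NF-kappaB list.

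Markers of the cells that make or answer chemokines were summed in each library. Of 10 Kupffer cell markers 8 were higher, with summed levels of 232.3 and 239.2 CPM in controls and 268.5 and 254.5 CPM in the libraries labelled HuR hKO, and Clec4f, the most abundant, had a log2FC of 0.27. Of 9 monocyte and recruited macrophage markers 4 were tested and 3 were higher, with sums of 9.32 and 7.53 CPM in controls and 11.6 and 10.3 CPM in the libraries labelled HuR hKO, and Plac8 was the most abundant. Of 9 liver endothelial markers 8 were higher (median 0.20) and of 9 stellate markers 7 were higher (median 0.19), where Clec4g and Dcn led. Neutrophil markers, the cells that Cxcl1 attracts, summed to 2.25 and 2.46 CPM in controls and 2.02 and 1.54 CPM in the libraries labelled HuR hKO, and Csf3r, the only 1 of the 9 that was tested, led the sum with 20 and 22 counts against 12 and 20. S100a8 lay the other way, with 1 and 1 counts against 3 and 5, and Camp was at 0 in every library (both named after their values were seen). Of 12 T and NK cell markers 2 were tested, 1 higher and 1 lower. Their sums were 3.91 and 6.56 CPM against 4.95 and 5.62 CPM over all 12, and Cd4, the lower of those tested, led. Hepatocyte markers were higher for 4 of 10 (median -0.07), and their part in any of these values, like that of the other cell types, was not tested.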

How the data were processed

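Total liver RNA was sequenced from 4 mice after library preparation by Genewiz's protocols, and the authors deposited whole-number read counts per Ensembl gene, without normalization, 1 column per mouse. The submitters' processing notes name RSEM and GRCm38 without a role, RSEM estimates may have been rounded, and the aligner and use of strand were not given in the sources used here. Each of the 4 columns was matched to a mouse by its number, and 0 columns were left over. Symbols were found for 46005 of the 46603 identifiers, and the rest took no more than 0.0722% of any library.

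Counts were scaled by TMM factors and genes kept by edgeR's default filter (version 4.0.16, a minimum count of 10 and a total of 15), which left 13001. The groups were compared by quasi-likelihood, with Benjamini-Hochberg adjustment over all of them. DESeq2 (1.42.0) and limma-voom (3.58.1) were alternatives, with other scalings, filters and each mouse left out in turn. RPKM used merged exon lengths of GENCODE M21. The floor of 3 counts was between 0.159 and 0.225 CPM. This floor and the exact counting interval of Mmp12 cover counting error only. The edgeR intervals of the log2FCs follow from the SE of the fit, which also takes in the spread between mice. Counts of paralogs and overlapping genes are uncertain. The fit was tested on simulated counts. The chemokines, lists and markers were chosen with earlier results of these data known. Named genes were the members, their receptors, Elavl1, the most abundant gene and the one with the smallest p of each pathway list, the most abundant marker of each cell type, and ligands or receptors past a fold of 1.8 with an unadjusted p below 0.05. The rule also asked for protein sequences, which are not shown here, and 2 genes that it names are not reported here.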

Additional observations from a re-analysis of the deposited data

How the results depend on the processing

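No chemokine was called under any of the 12 alternatives, in which the adjusted p of Cxcl1 was 0.199 or higher. With no scaling for library size 1 member passed a fold of at least 1.8 with an unadjusted p below 0.05, and 6 did not overlap. The shares over all genes at that setting are not given here, so these counts cannot be read as a result about the members. The median of the members was 0.54 there, beside a median over all genes of 0.31. The directions of Cxcl12 (0.25), Ccl9 (0.10), Anpep (0.28), Iigp1 (0.06), Chuk (0.24) and Ccr2 (0.10) turned. With 1 mouse left out, the members past that fold and p numbered between 0 and 1 (1 without control mouse 1), those not overlapping between 4 and 7 (7 without control mouse 1 or mouse 4), those higher between 4 and 5, and the members' median ran from 0.026 to 0.44. The direction turned for Cxcl9 (-0.11 to 0.54), Ackr4 (-0.25 to 0.40, and -0.05 without control mouse 2), Anpep (-0.12 to 0.042, and 0.038 without control mouse 2), Chuk (-0.20 to 0.07), Ackr3 (-0.51 to 0.80) and Ccr2 (-0.62 to 0.18, and 0.17 without control mouse 1), all uncalled, and the cause was not tested. Cxcl9 was -0.0086 without mouse 3. Leaving out 1 mouse leaves a single mouse in its group, so groups fail to overlap more easily than with 2 in each. The shares over all genes with 1 mouse left out are not given here. The counts there of members not overlapping, or past that fold and p, therefore cannot be read as a result about the members. With the longest transcript in place of merged exons, Cxcl12 was 46.4 and Ccl25 1.24 RPKM, through the shorter length. Over all genes 3 were called, 85 by DESeq2, 2 by limma-voom, 8 by the robust fit, 155 with no scaling, 161 with no filter, 2 with at least 10 counts in every sample, and 0 to 45 with a mouse left out (0 without mouse 3). Depth limits Ccl2 and Cxcl13, with at most 11 counts in a library. No paired analysis was possible because the groups share no mouse numbers.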

Other observations

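Markers of B cells, which Cxcl13 attracts, were uneven between the control livers. Ighm, the immunoglobulin mu heavy chain, stood at 2.48 CPM in mouse 1, 25.4 in mouse 2, 13 in mouse 3 and 16.4 in mouse 4, and the 7 B cell markers summed to 4.81, 33.8, 20.8 and 23.1 CPM in the same order. Cxcl13 and its receptor Cxcr5 were both lowest in mouse 1, with 2 counts each, on few counts in all mice. Dendritic cell markers, led by Zbtb46, summed to 12.9 and 13.3 CPM in controls and 13.4 and 8.22 CPM in the libraries labelled HuR hKO.

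The library of control mouse 1 was the highest for single genes listed as markers of other tissues. Ctrb1, a pancreatic digestive enzyme, had 54 counts in mouse 1 and 0, 3 and 0 in mice 2 to 4. The other pancreas markers listed had 0 counts in mouse 1 and some in mouse 3. Vil1, an epithelial brush border protein, had 21 counts against 1, 2 and 3. Muc2, also on the intestine list, had 1 count in mouse 1 and 7 in mouse 2. The cholangiocyte markers, led by Spp1, summed to 52.8, 27.5, 39.6 and 49.7 CPM in mice 1 to 4. Krt19, a cholangiocyte keratin named after its values were seen, had 12.2 CPM in mouse 1 and between 0.373 and 1.8 CPM in the others. Krt7, Epcam and Cftr on that list were also highest in mouse 1. Sox9 went the other way and was lowest there, at 2.56 CPM, and Spp1 was highest in mouse 4, at 41.8 CPM. These markers, apart from Spp1, were likewise named after their values were seen. Without control mouse 1 the log2 fold changes of Cxcl1 and Ccl25 were 1.02 and -0.79.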
